A study of Cavia porcellus with 35 samples.

Results

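The genes described here encode the proteins that fill synaptic vesicles, bring them to the presynaptic membrane, fuse them with it and recover them. The list holds 49 gene symbols, chosen by name and sorted by step into 11 vesicle and transmitter loading genes, 11 docking genes, 6 priming genes, 14 fusion genes and 7 recycling genes. Symbols were matched ignoring case in 4 tables of read counts from the prefrontal cortex of guinea pigs (Cavia porcellus), 1 table each for F1, F2 and F3 females and for F1 males. Of the 49, 46 were listed for F1 females, F3 females and F1 males and 45 for F2 females, where SYNJ1 was not listed, and every listed member passed the filter on low counts. PCLO, VAMP2 and NSF were not analysed here. The tests ran on all 11268 genes of the F1 female table, 11132 of F2 females, 11420 of F3 females and 11524 of F1 males.

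RNA had been sequenced from the medial prefrontal cortex of 35 juvenile animals killed at postnatal day 40, with 1 library per animal. Each female generation held 4 Control and 4 Beta animals, and the F1 males were 5 Control and 6 Beta animals. The F1 Beta animals were born to mothers given repeated courses of betamethasone, a synthetic glucocorticoid, in late pregnancy, and the F1 Control animals to mothers given saline. F2 and F3 animals descended from these through the fathers, which were mated with females outside the experiment, so F2 and F3 Beta females had no treated mother. No allele or transgene was involved, and all groups shared species, age, brain region and kit. For the female groups no more than 1 animal per sex came from a litter, and animals were taken where enough RNA of good quality remained. The labels give the tissue as prefrontal cortex while their protocol text names the paraventricular nucleus. Summed markers of that nucleus (SIM1, OTP, OXT, AVP, CRH and TRH, of which 3 or 4 were listed) came to 6.58 to 19.3 CPM (counts scaled to the library total) in all 35 libraries, whereas cortical excitatory neuron markers summed to 1840 to 4820 CPM.

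Libraries held 12819964 to 31763585 counts, those of females up to 19551079 and those of males at least 25697953. The names of the count columns formed a separate series for females and for males. Sex therefore cannot be told apart from library set or depth. No pair of replicate libraries agreed within sampling noise, the closest pair having a chi-square of 2.84 per gene. Summed cell type markers differed between libraries, within groups as well as between Control and Beta animals. Striatal neuron markers (DRD2, ADORA2A, PPP1R1B and others) summed to 2350, 492, 769 and 2160 CPM in the F1 female Control animals and to 223 to 572 CPM in the Beta animals. In F3 females the sums were 310 to 945 CPM in Control and 208 to 454 CPM in Beta animals, and in F2 females and F1 males they lay between 115 and 199 CPM. Oligodendrocyte markers summed to 4710 to 16000 CPM in F1 female Control animals against 3690 to 7510 CPM in Beta, but to 3290 to 5110 CPM against 4880 to 11500 CPM in F2 females and 3560 to 6790 CPM against 7620 to 13100 CPM in F1 males. The values below are from bulk tissue, in which fewer cells of a type and less RNA per cell cannot be told apart.

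A nerve terminal stores transmitter in vesicles that transporters load and synapsins hold in reserve. Rab3 proteins and the active zone scaffolds (RIM, bassoon, ELKS) dock a vesicle, Munc13 and CAPS proteins prime it, and the SNARE proteins syntaxin, SNAP25 and synaptobrevin drive fusion when calcium binds a synaptotagmin. Clathrin adaptors, amphiphysin, dynamin and synaptojanin then retrieve the membrane, while NSF and its SNAP adaptors pull spent SNARE complexes apart. In the prefrontal cortex most release is of glutamate from pyramidal neurons, which load vesicles mainly through VGLUT1 (SLC17A7).

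In F1 females, vesicle release genes were higher in Beta than in Control animals at every step. With edgeR's quasi-likelihood test and a false discovery rate (FDR) under 0.05 over all genes, 27 of the 46 members rose and 1 fell, where 16.5% of all genes were called (9.21% higher and 7.33% lower). Members that rose numbered 7 of 11 vesicle and loading genes, 5 of 10 docking genes, 3 of 6 priming genes, 7 of 13 fusion genes and 5 of 6 recycling genes. The median log2 fold change of Beta over Control was 0.43 over the 46 members and -0.03 over all genes. Irrespective of the test, 42 of 46 members lay above 0, against 45.5% of all genes. Every Beta animal lay above every Control animal in 28 members and below in 1, where groups did not overlap in 23.2% of all genes.

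**Figure D1:**
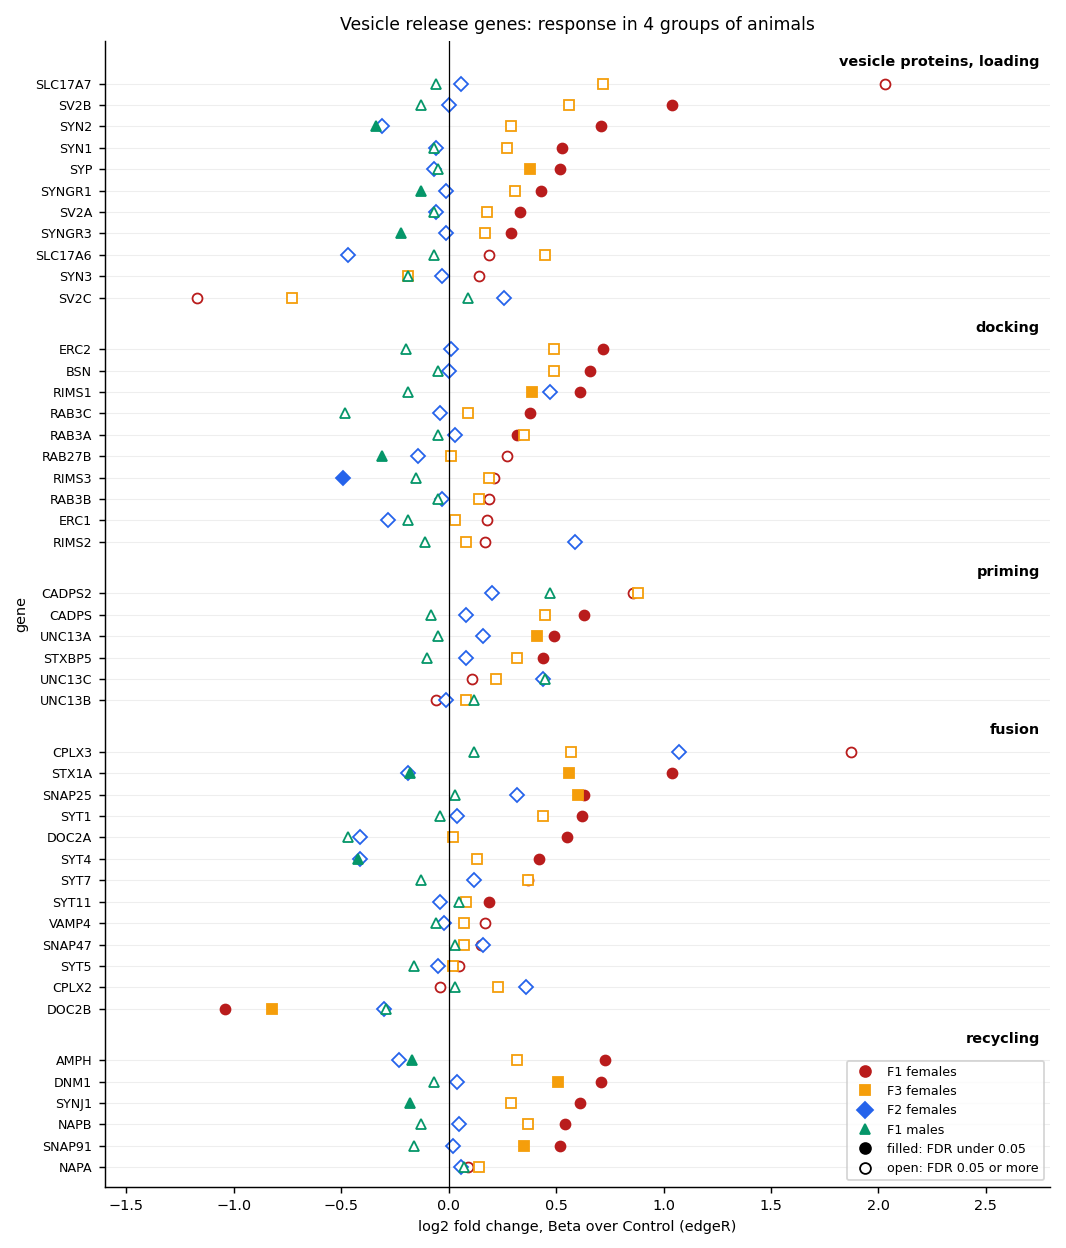
Log2 fold change of Beta over Control (edgeR) for each listed gene, by step, in F1 females (circles), F3 females (squares), F2 females (diamonds) and F1 males (triangles), filled where the FDR was under 0.05. Filled circles lie to the right of 0 for 27 members and to the left for DOC2B alone, while all 8 filled triangles lie to the left.

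The recycling genes had the highest median of the steps in F1 females, 0.57. NAPB, the brain form of the SNAP adaptor that recruits NSF, was at 719, 720, 726 and 741 TMM-normalised CPM in the Control animals and at 1090, 1050, 1010 and 1070 CPM in the Beta animals. Its log2 fold change was 0.54 (SE 0.05, FDR 0.00279 with edgeR's quasi-likelihood test), and the replicates of each group lay within a narrow band far from the other group. SNAP91 (AP180), the neuronal clathrin assembly protein, was at 472, 450, 472 and 483 CPM in Control and 682, 682, 672 and 664 CPM in Beta animals, a log2 difference of 0.52 (SE 0.04, FDR 0.00279). SYNJ1, the lipid phosphatase that uncoats recovered vesicles, was at 289, 272, 283 and 286 CPM in Control and 442, 464, 399 and 414 CPM in Beta animals, a log2 difference of 0.61 (SE 0.06, FDR 0.00356). None of these 3 genes overlapped between groups. AMPH (amphiphysin), which brings dynamin to the vesicle neck, rose by 0.73 and DNM1 (dynamin), which cuts the neck, by 0.71. NAPA, the widely expressed SNAP adaptor, had a log2 fold change of 0.09 (FDR 0.201) and did not pass.

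Among the vesicle proteins SYN1, SYN2 and SYP had the smallest FDRs. SYN2, a synapsin that tethers the reserve pool, was at 500, 487, 535 and 561 CPM in Control and 903, 914, 779 and 813 CPM in Beta F1 females, a log2 fold change of 0.71 (SE 0.07, FDR 0.00356). SYN1 was at 853, 771, 794 and 837 CPM in Control and 1220, 1110, 1160 and 1210 CPM in Beta animals, a log2 difference of 0.53 (SE 0.06, FDR 0.00356). SYP (synaptophysin), an abundant membrane protein of the vesicle, was at 1210, 1040, 1090 and 1160 CPM in Control and 1640, 1610, 1560 and 1660 CPM in Beta animals, a log2 difference of 0.52 (SE 0.06, FDR 0.00390). In all 3 the lowest Beta animal lay above the highest Control animal. The tetraspanning synaptogyrins SYNGR1 (0.43) and SYNGR3 (0.29) and the vesicle glycoproteins SV2A (0.33) and SV2B (1.04) also rose. SYN3, the synapsin best known from young neurons, had a log2 fold change of 0.14 (FDR 0.624).

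At docking, the active zone genes ERC2 (0.72), BSN (0.66) and RIMS1 (0.61) and the vesicle GTPases RAB3C (0.38) and RAB3A (0.32) rose in F1 females. The other docking members RIMS2, RIMS3, RAB3B, RAB27B and ERC1 had log2 fold changes of 0.17 to 0.27 and did not pass. At priming, CADPS (0.63), UNC13A (0.49) and STXBP5 (0.44) rose. CADPS and UNC13A are priming factors, and STXBP5 (tomosyn) is an inhibitor of SNARE assembly. UNC13B, UNC13C and CADPS2 had values of -0.06, 0.11 and 0.86 with FDRs of 0.722, 0.864 and 0.168.

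At fusion, the plasma membrane SNARE genes STX1A (1.04) and SNAP25 (0.63), the fast calcium sensor SYT1 (0.62), DOC2A (0.55), SYT4 (0.42), the slow calcium sensor SYT7 (0.37) and SYT11 (0.19) rose in F1 females. SYT4 and SYT11 are synaptotagmins that do not act as calcium sensors of fast release. DOC2B, a high-affinity calcium sensor of spontaneous release and the paralogue of DOC2A, was the only member called lower in the quasi-likelihood test. The members without a call were CPLX3, SYT5, SNAP47, VAMP4 and CPLX2, and of these CPLX2, a complexin that clamps SNARE complexes, lay at -0.04 (FDR 0.841).

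**Figure D2:**
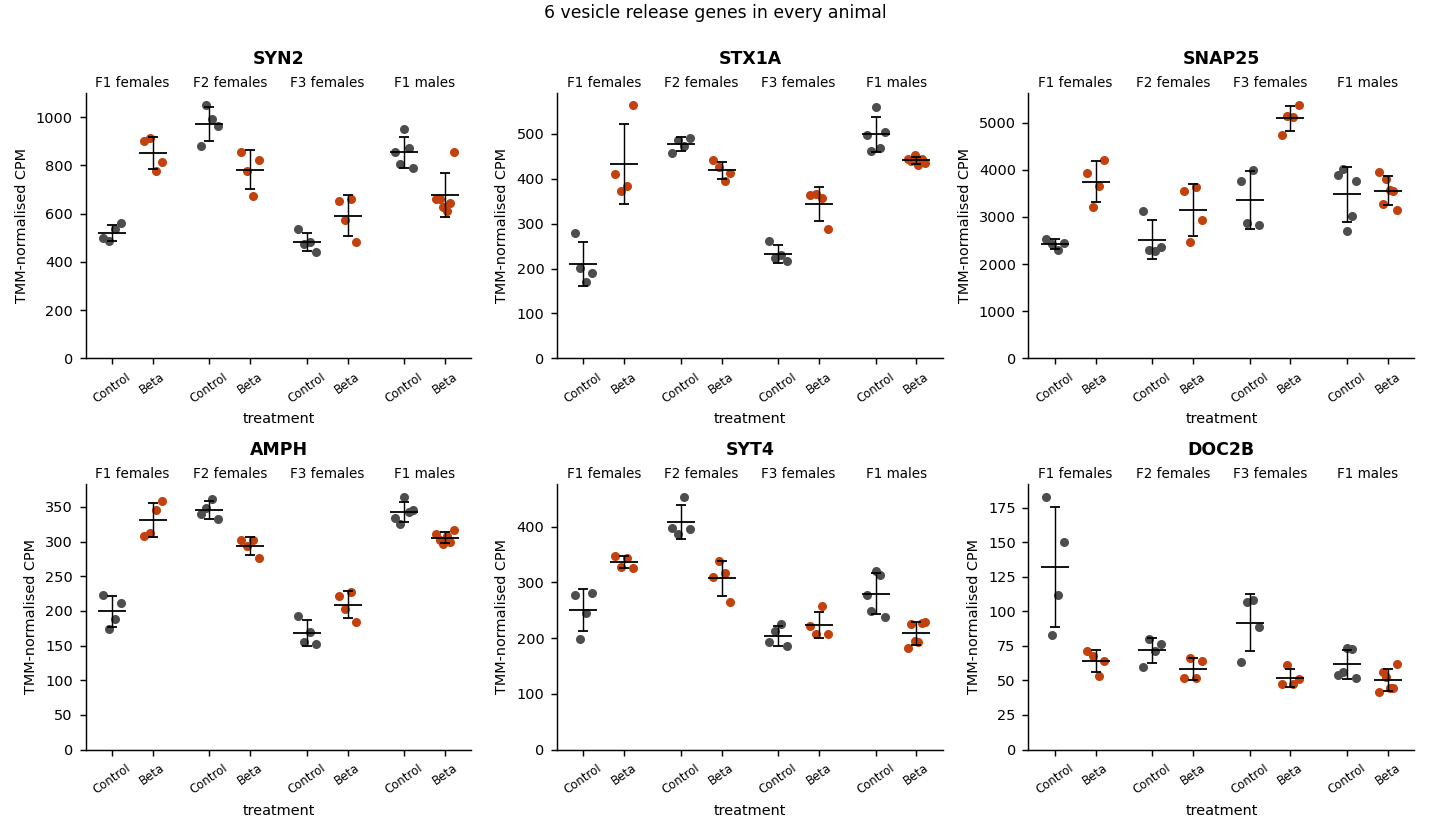
TMM-normalised CPM of SYN2, STX1A, SNAP25, AMPH, SYT4 and DOC2B in every animal, Control (grey) and Beta (orange), with the mean and SD of each group. Levels were normalised within each group of animals. In F1 females the Beta animals lie above the Control animals for 5 genes and below for DOC2B, while in F1 males AMPH, SYT4, STX1A and SYN2 are lower in Beta animals.

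The pair DOC2A and DOC2B moved apart in F1 females. These genes, and the others of this paragraph, were chosen after their values were seen. DOC2A was at 61.8, 54.4, 59 and 64.9 CPM in Control and 90.3, 83.1, 86.8 and 90.6 CPM in Beta animals (FDR 0.00390). DOC2B was at 183, 83.1, 112 and 150 CPM in Control and 71.1, 68, 53.5 and 63.8 CPM in Beta animals, a log2 difference of -1.04 (SE 0.22, FDR 0.0177). The log2 ratio of DOC2A to DOC2B, taken relative to the Control mean, was 1.37 to 1.77 in Beta animals and -0.49 to 0.47 in Control animals. The SV2 pair showed the same arrangement of values without a call for its lower member in the quasi-likelihood test. SV2B was at 613, 416, 384 and 438 CPM in Control and 929, 961, 778 and 1140 CPM in Beta animals. SV2C, the form enriched in basal ganglia, was at 212, 63.4, 91.4 and 166 CPM in Control and 51.3, 40.7, 62.7 and 82.5 CPM in Beta animals, a log2 difference of -1.17 that missed the threshold in edgeR's quasi-likelihood test (FDR 0.0611) and passed it as lower in edgeR's likelihood ratio test (FDR 0.0149) and DESeq2 (FDR 0.0377). The log2 ratio of SV2B to SV2C relative to the Control mean was 1.7 to 2.63 in Beta and -0.53 to 0.78 in Control animals. DOC2B and SV2C were highest in Control replicates 1 and 4, the animals with the highest striatal marker sums, and the part of those markers in these values was not tested.

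The member with the largest fold change in F1 females was not called in edgeR's quasi-likelihood test. SLC17A7 was at 989, 317, 171 and 240 CPM in Control and 1310, 1230, 884 and 3580 CPM in Beta animals. Its log2 fold change of 2.03 had an SE of 0.63 and an FDR of 0.0571, and Control replicate 1 lay above Beta replicate 3. In edgeR's likelihood ratio test its FDR was 0.00930 and in DESeq2 0.0232. SLC17A6, which encodes VGLUT2, the transporter of many subcortical glutamate neurons, had a log2 fold change of 0.19 (FDR 0.686). CPLX3 was next by size at 1.87 (SE 0.84, FDR 0.151), with Beta animals at 317, 560, 13.3 and 534 CPM and thus both the highest and the lowest animals of the table.

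Marker genes moved with the F1 female result. General neuron markers summed to 3940 to 4480 CPM in Control and 4860 to 6190 CPM in Beta animals, and 4 of the 8 measured were called higher, with a median log2 fold change of 0.45 that was close to the 0.43 of the vesicle release genes. The 9 cortical excitatory markers had a median of 1.48 with 0 called, 7 at an unadjusted p under 0.05, and 4 called by edgeR's likelihood ratio test and 3 by DESeq2. Striatal markers were lower in 7 of 7 (4 called, median -2.30), oligodendrocyte markers in 8 of 8 (0 called, 3 at an unadjusted p under 0.05, with 1 call by edgeR's likelihood ratio test and 0 by DESeq2), microglial markers in 5 of 5 (4 called) and endothelial markers in 7 of 7 (1 called). Astrocyte markers were lower in 6 of 7 (3 called), and of the 7 inhibitory neuron markers 1 was called lower. No listed marker was at 0 in every library. A fit added after seeing the data left out Control replicates 1 and 4 together, the animals with the highest striatal sums. It had a median of 0.51 over the members and 0.00 over all genes. It called 24 members higher and 1 lower, and the share of all genes called was not counted. Control replicates 2 and 3, which were kept, had striatal sums of 492 and 769 CPM, against 223 to 572 CPM in Beta animals. The part of the striatal and other markers in the result was not tested.

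**Figure D3:**
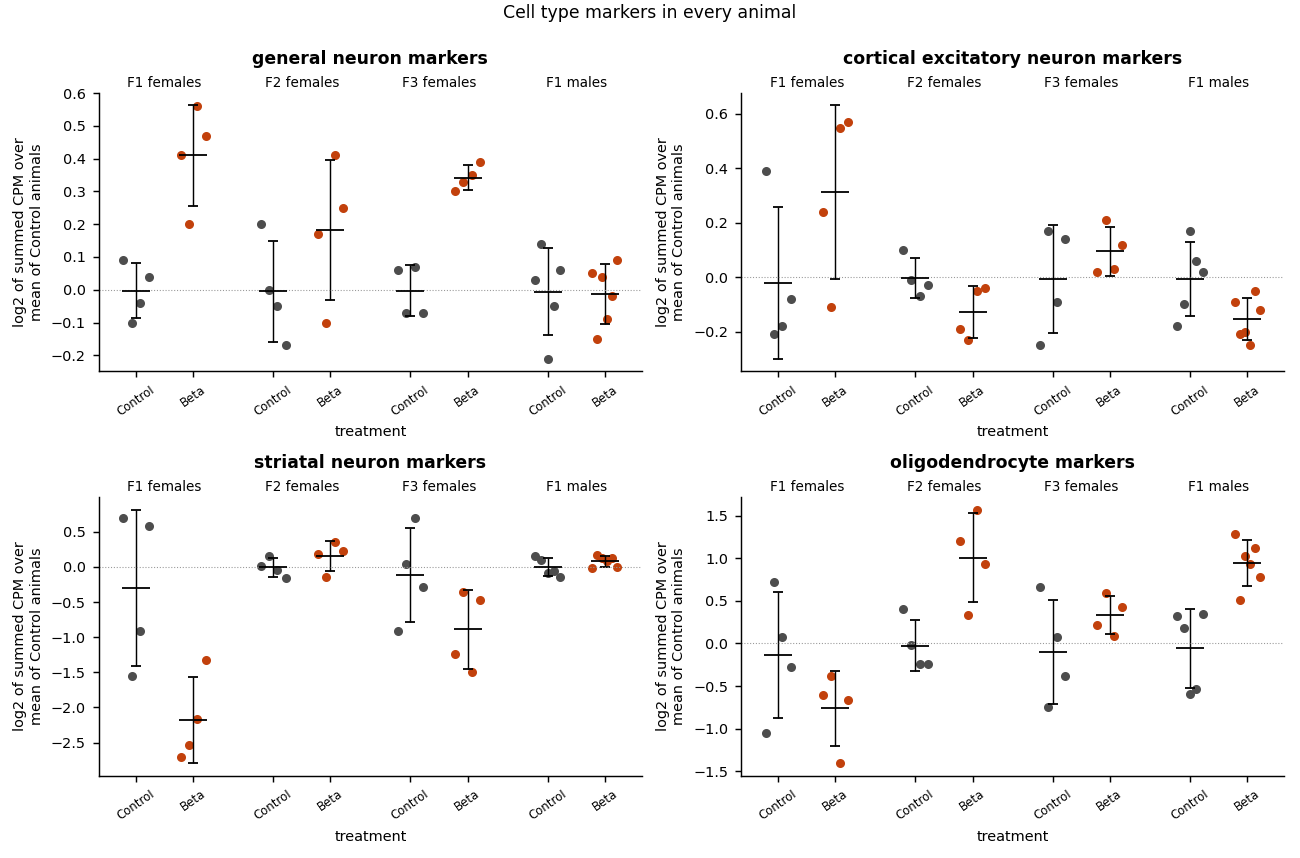
Log2 of the summed CPM of 4 cell type marker lists relative to the mean of the Control animals of the same group, for every animal, with the group mean and SD. Relative to their Control mean, striatal markers lie furthest down in F1 female Beta animals, general neuron markers are higher in Beta animals of F1 and F3 females, and oligodendrocyte markers are higher in Beta animals of F2 females and F1 males.

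F3 females showed the direction of F1 females with a lower median. In edgeR's quasi-likelihood test 7 members were called higher and 1 lower of 46, where 1.34% of all genes were called (1.07% higher and 0.271% lower), and the median log2 fold change was 0.29 against -0.01 over all genes. Of the 46 members 43 lay above 0, against 48.2% of all genes, or 40 with upper-quartile normalisation. The calls were spread over all steps, with SYP among vesicle proteins, RIMS1 at docking, UNC13A at priming, STX1A, SNAP25 and DOC2B at fusion and SNAP91 and DNM1 at recycling. All 8 were called in the same direction in F1 females.

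Of the priming and docking genes, UNC13A (Munc13-1), which opens syntaxin for SNARE assembly, was at 544, 500, 577 and 496 CPM in Control and 693, 734, 673 and 718 CPM in Beta F3 females, a log2 fold change of 0.41 (SE 0.06, FDR 0.0208 with edgeR's quasi-likelihood test). RIMS1 (RIM1), the scaffold that joins Rab3, Munc13 and calcium channels, was at 323, 304, 322 and 323 CPM in Control and 420, 409, 381 and 455 CPM in Beta animals, a log2 difference of 0.39 (SE 0.06, FDR 0.0224). Neither gene overlapped between groups. STX1A (syntaxin 1A) was at 261, 224, 230 and 216 CPM in Control and 365, 366, 357 and 287 CPM in Beta animals, a log2 difference of 0.56 (SE 0.09, FDR 0.0251), with Beta replicate 4 apart from the other Beta animals yet above all Control animals. SYP was at 905, 758, 831 and 746 CPM in Control and 1090, 1050, 1110 and 973 CPM in Beta animals (0.38, SE 0.07, FDR 0.0429). SNAP91 was at 377, 347, 375 and 332 CPM in Control and 449, 425, 504 and 446 CPM in Beta animals (0.35, SE 0.07, FDR 0.0429). Control replicates 1 and 3 were the higher Control animals for UNC13A, STX1A, SYP and SNAP91. DNM1, next by FDR, was at 945, 703, 786 and 723 CPM in Control and 1220, 1140, 1140 and 1000 CPM in Beta animals (0.51, SE 0.10, FDR 0.0437).

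SNAP25 rose by 0.60 (SE 0.12, FDR 0.0437) and DOC2B fell by 0.82 on the log2 scale (SE 0.16, FDR 0.0437) in F3 females. DOC2B was at 63.6, 107, 108 and 88.7 CPM in Control and 47.6, 61.1, 47.4 and 50.9 CPM in Beta animals. Members that did not pass in the quasi-likelihood test included CADPS2 at 0.88 (FDR 0.0538), SLC17A7 at 0.72 (FDR 0.0780), SV2B at 0.56 (FDR 0.141) and SV2C at -0.73 (FDR 0.348). CADPS2, SLC17A7 and SV2B were called higher by edgeR's likelihood ratio test and DESeq2. In 19 members, 18 higher and 1 lower, the groups did not overlap, against 10.3% of all genes (5.95% higher and 4.35% lower).

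The F3 count rested on few animals. It was 17 without Control replicate 1, 7 without Control replicate 3, 1 without Beta replicate 1, 3 or 4, and 0 without Control replicate 2, Control replicate 4 or Beta replicate 2, while the median stayed between 0.25 and 0.35. With the replicate number as a block 3 members were called. With edgeR's likelihood ratio test or DESeq2 19 were called. General neuron markers summed to 2640 to 2920 CPM in Control and 3420 to 3640 CPM in Beta F3 females, with 3 of 8 called higher and a median of 0.44, and the 7 measured striatal markers had a median of -0.74 with 0 called by any of the 3 tools and 4 at an unadjusted p under 0.05. Cortical excitatory markers lay above 0 in 7 of 8 (median 0.47, 0 called, 5 at an unadjusted p under 0.05). Of them 3 were called higher by edgeR's likelihood ratio test and 4 by DESeq2. The part of these marker lists in the F3 result was not tested.

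**Figure D4:**
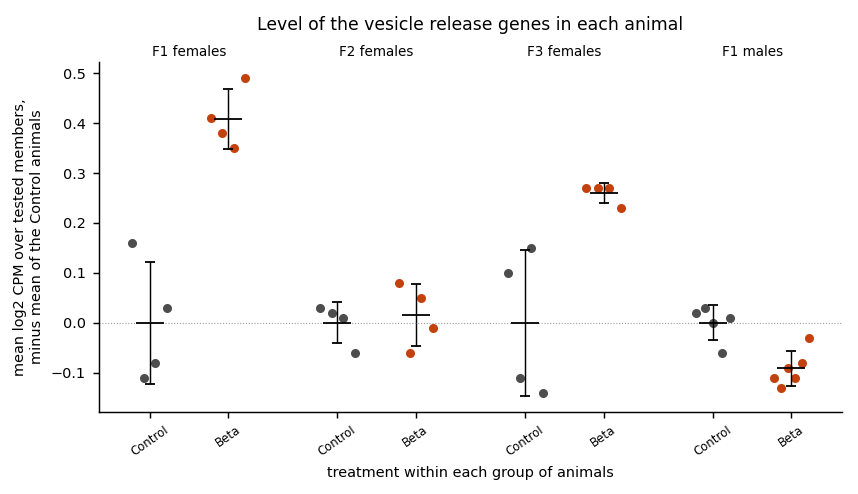
Mean log2 CPM over the tested vesicle release genes in each animal, minus the mean of the Control animals of its group, with group mean and SD. Beta animals lie at 0.35 to 0.49 in F1 females, -0.06 to 0.08 in F2 females, 0.23 to 0.27 in F3 females and -0.13 to -0.03 in F1 males.

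Averaged over the members, each F1 female Beta animal lay 0.35 to 0.49 above the Control mean on the log2 scale, while the Control animals lay between -0.11 and 0.16. In F3 females the Beta animals lay at 0.23 to 0.27 and the Control animals at -0.14 to 0.15. By step, the F1 female Beta animals were closest to each other for recycling (0.51 to 0.57) and furthest apart for priming (0.07 to 0.62).

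In F2 females the members showed no common direction. In edgeR's quasi-likelihood test 1 of 45 members was called, lower, where 0.278% of all genes were called (0.153% higher and 0.126% lower). An unadjusted p under 0.05 was found for 16 of the 45 members and for 1789 of all 11132 genes. The median log2 fold change was 0.00, with 23 members above 0 and 22 below, where 52.1% of all genes lay above 0. The call was RIMS3, a short RIM protein of the active zone, at 161, 156, 163 and 162 CPM in Control and 112, 121, 104 and 120 CPM in Beta animals. Its log2 fold change was -0.49 (SE 0.06, FDR 0.0334) and the groups did not overlap. SYT4 had the next smallest FDR and did not pass, at 397, 387, 454 and 395 CPM in Control and 309, 338, 317 and 264 CPM in Beta animals (-0.41, SE 0.08, FDR 0.0538), although it was called lower by edgeR's likelihood ratio test (FDR 9.98e-04) and DESeq2 (FDR 8.61e-04). The groups did not overlap in 8 members, 2 higher and 6 lower, against 8.09% of all genes (4.08% higher and 4.02% lower).

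The F2 count also moved with animals and tools. It was 6 without Beta replicate 2, 2 without Control replicate 1, and 0 without Control replicate 2, 3 or 4 or Beta replicate 1 or 3. It was 8 with edgeR's likelihood ratio test and 10 with DESeq2, in both with members on either side of 0. Oligodendrocyte markers were higher in 8 of 8 (median 1.02, 0 called, 7 at an unadjusted p under 0.05, with 7 calls by edgeR's likelihood ratio test and 6 by DESeq2), and their part in these values was not tested.

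In F1 males the members lay slightly lower in Beta than in Control animals. With edgeR's quasi-likelihood test 8 of 46 members were called, all lower, where 9.22% of all genes were called (5.74% higher and 3.48% lower). They were SYN2, SYNGR1 and SYNGR3 of the vesicle, RAB27B at docking, STX1A and SYT4 at fusion, and AMPH and SYNJ1 at recycling. Of the 6 priming genes 0 were called, with 3 at an unadjusted p under 0.05, and edgeR's likelihood ratio test and DESeq2 each called 1 of them higher. The median log2 fold change was -0.09 against 0.00 over all genes, and 36 of 46 members lay below 0, where 50.0% of all genes lay above it.

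SYNGR3 (synaptogyrin 3), a vesicle membrane protein that also binds the dopamine transporter, was at 264, 260, 278, 267 and 259 CPM in Control males and at 218 to 243 CPM (median 225) in the 6 Beta males. Its log2 fold change was -0.22 (SE 0.04, FDR 0.00453 with edgeR's quasi-likelihood test), with no overlap between groups. SYT4 was at 277, 249, 320, 313 and 238 CPM in Control and 182 to 228 CPM (median 210) in Beta males, a log2 fold change of -0.42 (SE 0.09, FDR 0.0109). AMPH was at 334, 325, 365, 343 and 346 CPM in Control and 297 to 317 CPM (median 305) in Beta males, a log2 fold change of -0.17 (SE 0.04, FDR 0.0150). These 3 genes passed in all 11 fits that left out 1 male each, and in each the highest Beta male lay below the lowest Control male.

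SYN2 was at 856, 806, 950, 874 and 789 CPM in Control and 611 to 857 CPM (median 652) in Beta males, a log2 fold change of -0.34 (SE 0.08, FDR 0.0216 with edgeR's quasi-likelihood test). Only Beta replicate 6 reached the range of the Control males. RAB27B, a GTPase that tethers secretory vesicles, was at 30.2, 28.1, 30.8, 31.5 and 25.2 CPM in Control and 20.6 to 27.5 CPM (median 23.4) in Beta males, a log2 fold change of -0.31 (SE 0.08, FDR 0.0299) with overlapping groups. STX1A was at 498, 463, 561, 469 and 504 CPM in Control and 431 to 452 CPM (median 442) in Beta males, a log2 fold change of -0.18 (SE 0.05, FDR 0.0329). Its Beta males lay close together, just under the lowest Control male. SYNGR1 and SYNJ1 fell by 0.13 and 0.18 on the log2 scale (FDR 0.0347 and 0.0408). In 5 members the groups did not overlap, all lower in Beta males, against 6.26% of all genes (4.22% higher and 2.04% lower).

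The count in males was 16 without Beta replicate 6, 8 without Control replicate 2, 6 without Control replicate 5, 5 without Control replicate 4 or Beta replicate 2, 4 without Control replicate 1 or Beta replicate 1, and 3 without Control replicate 3 or Beta replicate 3, 4 or 5. It was 12 with the replicate number as a block, 11 of them lower. Oligodendrocyte markers rose in 8 of 8 (median 0.98) in the Beta males, general neuron markers summed to 4620 to 5900 CPM in Control and 4830 to 5710 CPM in Beta males, and 1 general neuron marker of 8 was called lower. Inhibitory neuron markers were below 0 in 6 of 7 (median -0.22), with GAD1 (FDR 0.0293) and SST (FDR 0.0345) called lower, and summed to 597 to 737 CPM in Control and 543 to 678 CPM in Beta males. Cortical excitatory markers were below 0 in 6 of 9 (median -0.10, 0 called, 4 at an unadjusted p under 0.05). Of them 3 were called lower by edgeR's likelihood ratio test and 3 by DESeq2. The part of these markers in the lower member levels was not tested.

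The responses of F1 females and F1 males differed for most members, and in this comparison sex cannot be told apart from library set or depth. In the interaction term of the quasi-likelihood model (edgeR), 32 of 46 members differed, where 31.7% of all genes did, and in 30 of the 32 the response was lower in males. For all genes the share with a lower response in males was 15.6%. AMPH rose in F1 females (0.73) and fell in F1 males (-0.17), a difference of -0.90 (SE 0.09, FDR 5.56e-06). SNAP91 differed by -0.69 (SE 0.07, FDR 5.56e-06) and SYNJ1 by -0.79 (SE 0.08, FDR 5.56e-06), so the 3 smallest FDRs were those of recycling genes. The 2 members with a response higher in males were DOC2B and SV2C, for which the female values were the lower. Marker lists also differed between F1 females and F1 males. Their median log2 fold changes were 0.45 and -0.09 for general neuron, 1.48 and -0.10 for cortical excitatory, -2.30 and 0.05 for striatal and -0.75 and 0.98 for oligodendrocyte markers. The part of these markers in the differing responses was not tested. Without a threshold 34 members were above 0 in F1 and F3 females and below 0 in F1 males. In opposite directions, 7 members passed in both F1 groups (SYN2, SYNGR1, SYNGR3, STX1A, SYT4, AMPH and SYNJ1). The share of all genes was not counted for either pattern, so neither count sets the members apart from other genes. Signs in F1 females and F1 males were the same for 8 of 46 members and for 34.7% of all genes. Those of F1 and F3 females were the same for 43 of 46 members and 66.3% of all genes.

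**Figure D5:**
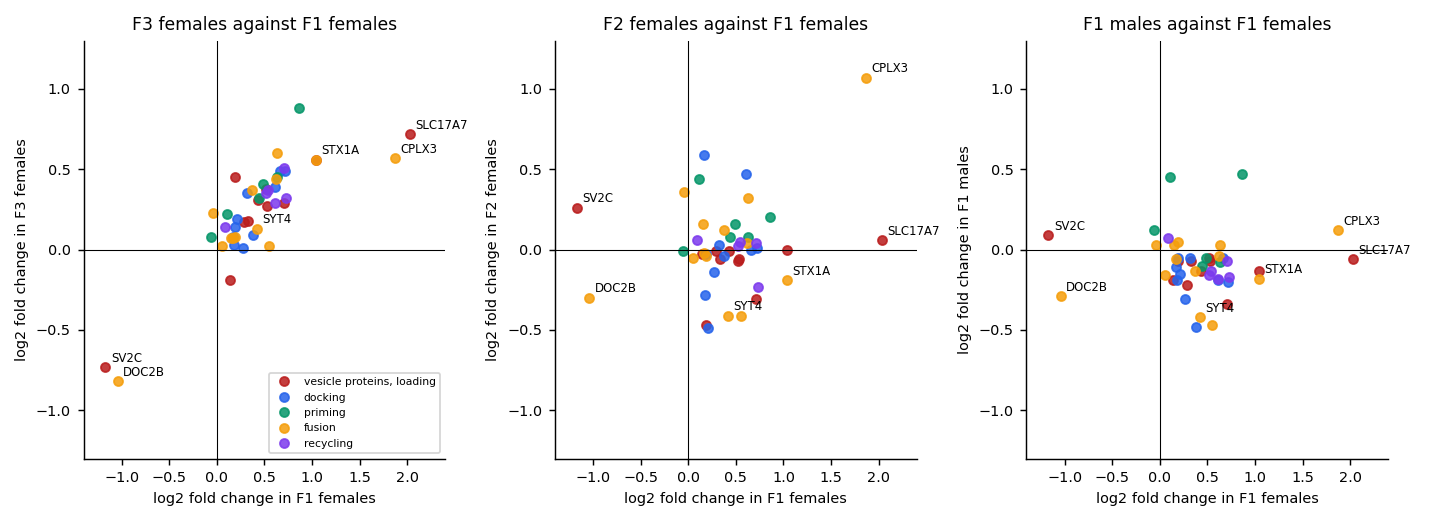
Log2 fold change of Beta over Control for each vesicle release gene in F3 females, F2 females and F1 males (vertical axes) against that in F1 females (horizontal axes), coloured by step. Points rise along the diagonal for F3 females, with 43 of 46 of the same sign, against 66.3% of all genes. Most lie below 0 for F1 males, with 38 of 46 of the opposite sign. The other 8 had the same sign there, against 34.7% of all genes.

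F1 and F2 females differed in 17 of 45 members, where 13.8% of all genes did, and all 17 responses were lower in F2 females. AMPH differed by -0.97 (SE 0.11, FDR 5.11e-04 with edgeR's quasi-likelihood test), SYN2 by -1.03 (SE 0.12, FDR 5.11e-04) and SYP by -0.60 (SE 0.08, FDR 9.58e-04). In F2 females AMPH was at 340, 348, 362 and 332 CPM in Control and 302, 293, 303 and 276 CPM in Beta animals, and SYN2 at 881, 1050, 991 and 965 CPM in Control and 857, 779, 672 and 821 CPM in Beta animals. Each was lower in every F2 Beta female without passing the quasi-likelihood test there (FDR 0.0811 and 0.109). AMPH was the only recycling gene below 0 in F2 females, and edgeR's likelihood ratio test and DESeq2 each called 1 recycling gene lower. Of the 11 vesicle and loading genes, each of these tools called 2 lower and 0 higher in F2 females. Median log2 fold changes in F1 and F2 females were -2.30 and 0.11 for striatal markers and -0.75 and 1.02 for oligodendrocyte markers. They were 0.45 and 0.15 for general neuron markers and 1.48 and 0.05 for cortical excitatory markers. The part of these markers in the differing responses was not tested.

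Between F1 and F3 females 0 of 46 members differed in edgeR's quasi-likelihood test, where 0.0981% of all genes did (0.0446% with a lower response in F3 females). The unadjusted p was under 0.05 for 9 members, and 0 were called by edgeR's likelihood ratio test or by DESeq2. The median difference was -0.16, towards smaller values in F3 females. Across the 46 members the log2 fold changes of these groups, which share no animals, had a Pearson r of 0.84 and a Spearman rho of 0.80, against 0.51 and 0.43 across all genes, where genes are not independent replicates. The correlation is a description and was computed for 6 pairs of groups. For F2 females and F1 males, which also share no animals, r was 0.54 and rho 0.57 over 45 members, against 0.51 and 0.44 over all genes.

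Between F2 and F3 females 1 of 45 members differed, where 0.0180% of all genes did. STX1A was lower in F2 Beta females, with Control animals at 458, 487, 474 and 491 CPM and Beta animals at 441, 426, 395 and 413 CPM, and higher in F3 Beta females. The difference of 0.75 had an SE of 0.11 and an FDR of 0.0160. Leaving out 1 animal gave 0 to 6 members, with 6 without F3 Control replicate 1 or F3 Beta replicate 4, and 2 without F3 Control replicate 2. It gave 0 without F2 Control replicate 4, F2 Beta replicate 1, 3 or 4, F3 Control replicate 3 or 4, or F3 Beta replicate 2 or 3.

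Over the 4 groups, 30 members were called in at least 1 table by edgeR's quasi-likelihood test and 16 in none. Those 16 were SYN3, SV2C, SLC17A7 and SLC17A6 of the vesicle, RAB3B, RIMS2 and ERC1 at docking, UNC13B, UNC13C and CADPS2 at priming, SNAP47, VAMP4, SYT5, CPLX2 and CPLX3 at fusion, and NAPA at recycling. Of the 16, edgeR's likelihood ratio test called 7 in some table (SLC17A7, SV2C, CPLX3, RIMS2, SLC17A6, UNC13C and CADPS2), and DESeq2 called these and SNAP47 and SYT5. DOC2B was the only member below 0 in all 4 groups, at -1.04, -0.30, -0.82 and -0.29 in F1 females, F2 females, F3 females and F1 males, with a call in F1 and F3 females. UNC13C, CADPS2, SNAP25, SNAP47, CPLX3 and NAPA were above 0 in all 4.

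The tables were normalised separately, so levels across them were set side by side on a common TMM scale with no test. The mean log2 CPM of the 45 shared members was 7.73 to 8.02 in F1 female Control and 8.21 to 8.34 in F1 female Beta animals. It was 8.13 to 8.22 and 8.12 to 8.27 in Control and Beta F2 females, and 8.18 to 8.27 and 8.12 to 8.21 in Control and Beta F1 males. In F3 females it was 7.37 to 7.64 and 7.75 to 7.80. On this scale the F1 female Control animals lay below all F2 females and all F1 males. All F3 females lay below every F2 female and every F1 male. Single genes also differed between groups. Normalised within each group, the endothelial marker ESAM averaged 19.1, 971, 14.4 and 1110 CPM in Control F1, F2 and F3 females and F1 males. RAB27B had Control medians of 27.8, 34.4, 6.63 and 30.2 CPM in that order. The part of read counting in these differences of level was not tested. SLC17A7 was at 179 to 1040 CPM in F1 female Control animals against 1330 to 1410 CPM in F2 female Control and 1400 to 1710 CPM in F1 male Control animals.

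Other genes of the release pathway, a separate list of 61 symbols, were tested in the same fits. In F1 females 20 of 54 tested were higher and 2 lower, where 9.21% of all genes were higher and 7.33% lower. Their median log2 fold change was 0.17, against -0.03 over all genes. SH3GL2 (endophilin A1), which works with synaptojanin, rose by 0.71 (SE 0.09, FDR 0.00390). SLC32A1, the vesicular transporter of GABA and glycine, fell by 0.89 on the log2 scale (SE 0.21, FDR 0.0254), from 200 ± 59.4 to 108 ± 16.8 CPM (SD, n = 4 each), and SNAP23, the SNARE used outside neurons, fell by 0.42 (SE 0.12, FDR 0.0415).

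In F3 females 6 of 53 of these genes were higher and 0 lower in the quasi-likelihood test, where 1.07% of all genes were higher and 0.271% lower. The likelihood ratio test of edgeR called 11 higher and 1 lower, and DESeq2 16 higher and 1 lower. SLC32A1 had a log2 fold change of -0.85 in F3 females (SE 0.19, FDR 0.0574 with edgeR's quasi-likelihood test) and did not pass. SYT12 rose by 0.77 (SE 0.09, FDR 0.00918 with edgeR's quasi-likelihood test) and VAMP1, a synaptobrevin, by 1.04 (SE 0.14, FDR 0.0165). In F2 females 0 of 54 were called in the quasi-likelihood test, where 0.278% of all genes were called. Of the 54, 13 had an unadjusted p under 0.05 (1789 of all 11132 genes), 6 were called by edgeR's likelihood ratio test and 5 by DESeq2. In F1 males 6 of 54 were higher and 5 lower, where 5.74% of all genes were higher and 3.48% lower. The active zone genes PPFIA2 (liprin-alpha 2) and RIMBP2 fell by 0.44 (SE 0.06, FDR 0.00303) and 0.39 (SE 0.06, FDR 0.00445) on the log2 scale, and VAMP3, a widely expressed synaptobrevin, and SYNGR2, a synaptogyrin found outside neurons, rose by 0.69 (SE 0.11, FDR 0.00411) and 0.54 (SE 0.10, FDR 0.00580).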

How the data were processed

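Raw counts of single-end mRNA reads, listed by gene symbol in 1 table for each of the 4 groups of animals, are as the authors deposited them, and no scaling had been applied. The submitters' processing notes name TopHat2 and edgeR. The genome build, annotation, read counter and its treatment of reads shared by paralogues are not given in the sources used here. The log fold changes, statistics, p-values and FDRs of the authors in the same tables were not used.

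The software was edgeR 4.0.16 and limma 3.58.1 under R 4.3.3. Genes were kept with filterByExpr (minimum count 10, minimum total 15), normalised by TMM within each table, and Beta was compared with Control by the quasi-likelihood test, with Benjamini-Hochberg adjustment over all genes tested and an FDR threshold of 0.05. For 4 pairs of groups an interaction term tested whether the response differed. Levels are TMM-normalised CPM, and SE is that of the log2 fold change. Libraries are separate animals, so p-values measure the spread between animals. Whether F1 males shared a mother, or F2 and F3 females a father or a treated ancestor, is not given in the sources used here. Code was tested on simulated data.

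The members and gene lists were chosen with earlier results of these data known. Full values are given for up to 6 members per table with the smallest FDR among those that passed, and at least 2, for the 3 members per pair with the smallest interaction FDR and opposite directions, and for up to 2 other pathway genes per direction and table, of which 1 is not reported here. Any other gene with full values was chosen after its values were seen.

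The replicate numbers in the labels are numbers only: deviations of same-numbered Control and Beta animals correlated at -0.33 to 0.34. Alternatives were edgeR's likelihood ratio test, DESeq2 1.42.0, RLE and upper-quartile normalization, no filter, a CPM above 1, an unadjusted p under 0.001 as well, the replicate block, 1 model over all 8 conditions and leaving out each animal. The fit without F1 female Control replicates 1 and 4 was added after seeing the data.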

Additional observations from a re-analysis of the deposited data

Results flagged for a closer look

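Of 92 groups of 4 to 6 animals, examined for the members that were called or had a smallest FDR in their table, 6 (6.52%) held an animal far from the others, where chance gives about 1 in 20. BSN was at 544 CPM in F1 female Control replicate 1, with the next animal at 424 CPM. SYT11 was at 1320 CPM in F1 female Beta replicate 2, with the next at 1240 CPM. SYT4 was at 454 CPM in F2 female Control replicate 3, with the next at 397 CPM. STX1A was at 287 CPM in F3 female Beta replicate 4, with the next at 357 CPM. RIMS1 was at 304 CPM in F3 female Control replicate 2, with the next at 322 CPM. SYN2 was at 857 CPM in F1 male Beta replicate 6, with the next at 662 CPM.

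Responses that differed between groups of animals in the interaction test of edgeR were counted for 32 members between F1 females and F1 males, 17 between F1 and F2 females and 1 between F2 and F3 females. Response in males minus response in females on the log2 scale was -0.90 for AMPH, -0.69 for SNAP91 and -0.79 for SYNJ1. Response in F2 minus F1 females was -0.97 for AMPH, -1.03 for SYN2 and -0.60 for SYP, and response in F3 minus F2 females was 0.75 for STX1A.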

How the results depend on the processing

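No called member reversed its direction in any alternative run. The count of members called in F1 females was 28 and ranged from 21 to 28 when 1 animal was left out (21 without Control replicate 3 or Beta replicate 1), and it was 20 to 32 under the other alternatives. In F2 females the count of 1 became 8 with edgeR's likelihood ratio test, 10 with DESeq2, 2 with upper-quartile normalization and 0 in the single fit of all 8 conditions, and ranged from 0 to 6 with 1 animal left out. In F3 females the count of 8 became 19 with the likelihood ratio test, 19 with DESeq2, 5 with upper-quartile normalization and 18 in the single fit, and ranged from 0 to 17 with 1 animal left out. In F1 males the count of 8 became 13 with DESeq2, 3 with an unadjusted p under 0.001 as well and 3 in the single fit, and ranged from 3 to 16 with 1 animal left out. The interaction count of F2 against F3 females, 1, became 7 with the likelihood ratio test and 8 with DESeq2 and ranged from 0 to 6, while those of F1 females ranged from 29 to 32 against F1 males, 17 to 20 against F2 females and 0 to 0 against F3 females. The cause of these shifts was not tested.

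With the replicate number as a block, 25 members were called in F1 females, 1 in F2 females, 3 in F3 females and 12 in F1 males, and 2 had an interaction between F2 and F3 females. The pairing has no source but the number: the animal of the other treatment that correlated best carried the same number for 1 of 4 Control and 1 of 4 Beta F1 females, 0 and 1 of 4 F2 females, 1 and 0 of 4 F3 females, and 0 of 5 and 0 of 6 F1 males. Of the single members with a call or a smallest FDR, 123 values lost and 2 gained significance with 1 animal left out and 267 kept their side. Every listed member passed the filter on low counts.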
